A study of Mus musculus with 18 samples.

Results

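Small RNA sequencing tables list mature miRNAs by the number under which each was registered, and mouse names from miR-5000 upwards are late additions to that list. The names described here are the mouse miR names numbered 5000 and above whose mean signal over 3 libraries reached 10 in at least 1 of 6 groups. There were 214 such names among 781 numbered 5000 and above and among 2042 names in the table. They were chosen by their mean signal in each group, so their levels and the groups in which they passed are a description and carry no test. Of the 781 names, 628 had at least 1 read and 153 had none, and 414 had reads but stayed under the mean of 10.

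The cells were C2C12, an established mouse myoblast line that fuses into myotubes when serum is lowered. Undifferentiated cells, grown with 10% FCS, were set beside cells differentiated for 7 days in 2% HS, and the labels call the tissue of all of them myoblasts. From each state came 3 libraries of input RNA, 3 of RNA eluted with a bait carrying the MRTF-A 3'UTR and 3 of RNA eluted with an MS2 control, which makes 18 libraries in 6 groups. In miTRAP, the method used, a bait RNA tagged with MS2 hairpins is held on amylose resin by a fusion of maltose-binding protein with the MS2 coat protein, and the small RNA that stays with the bait is sequenced as 50-base reads. MRTF-A, the product of Mrtfa, moves between cytoplasm and nucleus and switches on genes together with serum response factor. A, B and C denote the columns of a group in the deposited table. Nothing in the labels tells whether the 3 libraries were grown apart, so every p-value measures only the spread between libraries.

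A miRNA is cut from a hairpin precursor, first in the nucleus by Drosha and then in the cytoplasm by Dicer. A strand from one arm of the hairpin, named -5p or -3p, is loaded into an Argonaute protein and pairs with messages mainly through its seed, bases 2 to 8. Names registered early were mostly found by cloning abundant small RNAs. Many late names came from deep sequencing and rest on few reads, and some are short introns cut by splicing (mirtrons), whereas fragments of ribosomal or transfer RNA can be counted under a miRNA name when their sequence is alike. The cells carried the miRNAs of the 2 states: miR-1a-3p, a muscle miRNA, had 0 reads in the undifferentiated inputs and a mean signal of 7069 ± 610 (SD, n = 3) in the differentiated inputs, and miR-133a-3p, another, had 605 ± 552 and 40632 ± 9089.

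The sequences below belong to the names on which the results turn, in 3 sets by where they were seen. They are shown 5′ to 3′ from the RefSeq table of GRCm38.p6, with the seed in capitals. That table held 185 of the 214 names. miR-5099, miR-7680-3p, miR-7214-5p, miR-6355 and miR-6982-3p are named only.

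The first set was high in the MS2 control eluates:
miR-6244: gGGGGCGUggaauuaucgggu
miR-6240: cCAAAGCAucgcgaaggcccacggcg
miR-5106: aGGUCUGUagcucaguuggcaga
miR-5119: cAUCUCAUccuggggcugg
miR-6396: gGGGCCUUagcuccuaguccugga

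The second set had lower means in both eluates than in the inputs of the same state. miR-6241 was high in the MS2 eluates too, and miR-6238 kept 0.219 and 0.321 of its input signal there. miR-6236 kept 0.356 of its input signal in the undifferentiated MRTF-A eluates:
miR-6241: cACGGCGGcuggaauuccc
miR-6239: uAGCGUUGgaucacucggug
miR-6238: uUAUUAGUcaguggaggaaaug
miR-6236: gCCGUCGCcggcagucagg
miR-7680-5p: aUUCCAGUgaacaagcaguu
miR-5621-5p: aGGAGGUCcuggggccgcccuga

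The third set had nearly all its reads in the MRTF-A eluates:
miR-7649-3p: uCUCUCCAgcacugcuuguuucu
miR-7048-5p: cGGGGCUGagaggugaggaagc
miR-6346: uAGCAGGUgucugcaaugccaa
miR-6999-3p: cUUCAGCUguccuccuuucugu

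In that build miR-6244 lies on chromosome 9 from 52115653 to 52115673 on the plus strand, opposite the gene Zc3h12c. miR-6240 lies on chromosome 5 from 114851973 to 114851998 with no other annotated gene there, and miR-6241 on chromosome 14 from 118258659 to 118258677 within Gm4675. miR-5119 lies in an intron of Cdk12 (chromosome 11, 98262638 to 98262656) and miR-6396 in an intron of Pabpn1l (chromosome 8, 122622265 to 122622288). miR-6239 lies opposite Gpc6 (chromosome 14, 117953768 to 117953787), and miR-6238 (chromosome 7, 53891796 to 53891817) and miR-6236 (chromosome 9, 110281353 to 110281371) have no other annotated gene. miR-7680-5p lies within Gm16863 (chromosome 16, 21256047 to 21256066) and miR-5621-5p in an intron of Tmem94 (chromosome 11, 115795824 to 115795846). miR-7649-3p lies within Gm15987 (chromosome 6, 128974840 to 128974862), miR-7048-5p in an intron of Dedd2 (chromosome 7, 25217699 to 25217720), miR-6346 opposite Gli2 (chromosome 1, 118954278 to 118954299) and miR-6999-3p in an intron of Dgkz (chromosome 2, 91944872 to 91944893).

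Most of the 214 names rested on very few reads. Their median total over all 18 libraries was 13 reads, 98 names had 10 reads or fewer and 9 had a single read. At the other end, 44 names had 100 reads or more, 14 had 1000 or more, and 14 had a read in every library. Depth set what the mean of 10 required. An input had 294112 to 860828 reads, an MRTF-A eluate 107165 to 544504, and an MS2 eluate only 15562 to 39695. The signal of 1 read was therefore 1.66 to 3.05 in an input. It was 3.33 to 15.3 in an MRTF-A eluate, and 11.9 to 34.3 with the MS2 control. In the undifferentiated MS2 group 44 names passed there and nowhere else, 20 of them on 1 read, and in the differentiated MS2 group 49 did, 31 of them on 1 read. No name passed on 1 read in an input or MRTF-A group alone. The highest mean of a name was in an MS2 group for 128 names, in an MRTF-A group for 50 and in an input group for 36. Behind those highest means stood a median of 2 reads for the MS2 names, 9 for the MRTF-A names and 129.5 for the input names. Only 43 names reached the mean of 10 in both input groups, 155 in neither, and 26 had no input read at all.

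**Figure D1:**
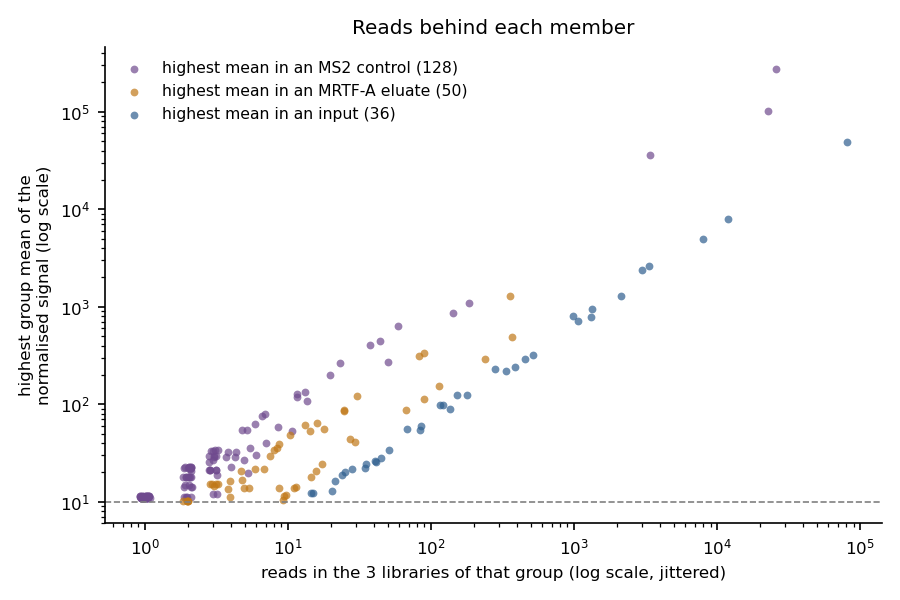
Each point is 1 of the 214 names, with the reads in the group of its highest mean on the x axis (log scale, slightly jittered) and that mean signal on the y axis (log scale), coloured by the kind of library; the dashed line is the mean of 10. The names that peak in an MS2 group crowd at 1 to 3 reads (96 of 128), while no name that peaks in an input group does.

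The edge of the threshold shows the same grain. Just inside it stood miR-5615-5p, miR-6386 and miR-6934-5p, each with a mean of 10.22 from 2 reads in the undifferentiated MRTF-A group. Just outside it stood miR-7087-3p with a mean of 9.76, miR-6901-5p with 9.68 and miR-6900-3p with 9.67, from 6 or 7 reads each in the differentiated MRTF-A group. The names outside thus had more reads than those inside. A mean of 10 was reached by 27.4% of the names numbered 5000 and above, by 39.9% of those from 1000 up to that number and by 45.8% of those below 1000.

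Reads were as unevenly divided among the names. Names numbered 5000 and above took 567849 reads, 12.1% of all reads, and the 214 names described here held 99.7% of them. miR-6244 alone had 309845 reads, miR-6241 119692, miR-5099 37852 and miR-6240 26062, and these 4 names together took 86.9%. The 12 names with most reads took 97.2%. After those 4 came miR-6239 (21434 reads), miR-6238 (13524), miR-7680-3p (6667), miR-7680-5p (6318), miR-6237 (4735), miR-5126 (2563), miR-6937-5p (2005) and miR-5128 (1518). Any sum over names numbered 5000 and above is therefore a sum over a handful of them.

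The share of each library's reads on names numbered 5000 and above separated the kinds of library. It was 15.6%, 12.5% and 5.23% in the undifferentiated inputs A, B and C (mean 11.1% ± 5.32 SD, n = 3) and 16.6%, 21.8% and 22.7% in the differentiated inputs (20.4% ± 3.32). The MS2 eluates held 63.0%, 52.9% and 49.1% (55.0% ± 7.17) and 55.5%, 55.1% and 54.5% (55.0% ± 0.479). The MRTF-A eluates held 4.97%, 3.68% and 3.99% (4.21% ± 0.678) and 10.3%, 5.75% and 5.37% (7.14% ± 2.75). Every MS2 library lay above every input, and every MRTF-A library lay below the inputs of its own state. On the deposited signal, whose scaling differs between kinds of library, MRTF-A eluates and inputs overlapped: the summed signal was 70869 to 107714 against 74647 to 139542 in undifferentiated and 84568 to 185774 against 121864 to 189981 in differentiated cells. The ratio of MRTF-A to input was then 0.773 and 0.806, in place of 0.379 and 0.351 for the share of reads. Of 9 comparisons between groups, 8 had groups that did not overlap, each with an exact 2-sided permutation p of 0.1, the smallest that 3 against 3 can give, and 0.113 after Benjamini-Hochberg adjustment over the 9. The states of the MS2 control overlapped (exact permutation p = 1). The exact test of 3 against 3 libraries cannot reach 0.05.

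**Figure D2:**
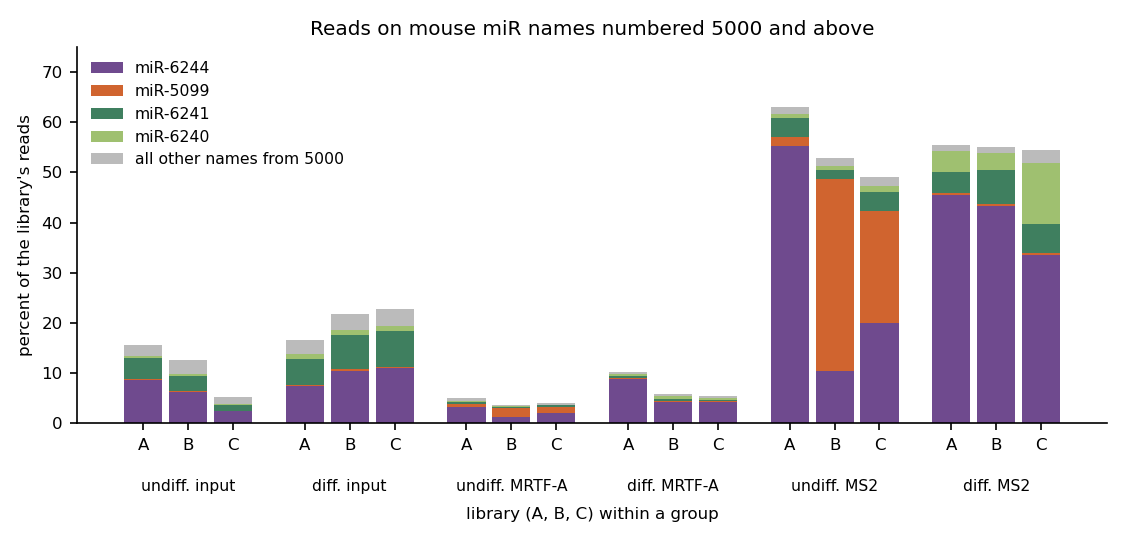
Percent of each library's reads on names numbered 5000 and above, as stacked bars for the 18 libraries in 6 groups, divided into miR-6244, miR-5099, miR-6241, miR-6240 and all other such names. The MS2 libraries stand at 49.1% to 63.0%, above all inputs, and their bars are mostly miR-6244 or miR-5099.

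The 2 names that filled the MS2 eluates were not the same from library to library. miR-6244 had a signal of 371968, 49284 and 104273 in the undifferentiated MS2 eluates A, B and C and 341461, 347781 and 140976 in the differentiated ones. miR-5099 had 12734, 180255 and 115735, and 3188, 3742 and 2112. Library A of the undifferentiated MS2 group was high in miR-6244 and low in miR-5099, and B was the other way round. C held both at similar levels, 20.0% of its reads for miR-6244 and 22.2% for miR-5099. Without both names the share of the remaining names fell to 5.65% ± 1.32 in the undifferentiated and 13.8% ± 5.91 in the differentiated MS2 eluates, against 5.21% ± 2.14 and 10.5% ± 1.44 in the inputs, so the ratio of MS2 to input shares was 1.09 and 1.32 in place of 4.95 and 2.70. In the MRTF-A eluates the share without them was 0.838% ± 0.310 and 1.18% ± 0.152. The difference between MS2 eluates and inputs in the share thus lay mostly in those names. The low share of reads in MRTF-A eluates remained without them. A share also falls where other names take more of the reads. miR-31-5p had a mean signal of 1.30e+06 in undifferentiated MRTF-A eluates against 6345 in the inputs. In differentiated cells miR-1a-3p had 568026 against 7069, and miR-31-5p 164771 against 1244. Their part in the low share was not tested.

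miR-6244 was also one of the most abundant names of the inputs, at 78042, 61056 and 33414 in undifferentiated and 55164, 90293 and 74743 in differentiated cells, where it ranked between 2 and 5 among all names. In the MRTF-A eluates it stood at 54243, 38538 and 36915, and 157262, 75983 and 68105. limma, fitted on log2(signal + 10) over all names with Benjamini-Hochberg adjustment, gave a difference of MS2 over input of 1.83 ± 0.57 (SE, log2) in differentiated cells with an adjusted p of 0.0098, and 1.20 ± 0.57 with 0.073 in undifferentiated cells, where the groups overlapped. With only the MS2 library C of the differentiated group, the one with under 0.5% of reads on human names, the limma difference was 0.97 and its adjusted p 0.166. The limma difference of MRTF-A from MS2 did not pass in either state (-1.54 ± 0.68, adjusted p 0.065, and -1.45 ± 0.68, adjusted p 0.066).

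miR-5099 was a minor name in the inputs, at 935, 1853 and 1710 in undifferentiated and 1573, 3889 and 357 in differentiated cells. In the undifferentiated MRTF-A eluates it reached 7865, 50676 and 21690, and in the differentiated ones 5088, 6187 and 597. Its limma difference of MS2 over input was 5.47 ± 1.04 in undifferentiated cells (adjusted p 0.00018) and 1.16 ± 1.04 in differentiated cells (adjusted p 0.33), and the difference between those differences was -4.31 ± 1.48 with an adjusted p of 0.072, short of the threshold. With library A as the only undifferentiated MS2 library, the limma value was 3.14 and its adjusted p 0.055. Over the 18 libraries the profiles most like it, by Pearson r of log2(signal + 10) among 757 names, were miR-709 (0.80), miR-3966 (0.78) and miR-5124b (0.68). For miR-6244 they were 3 names of human miRNAs in the table, hsa-miR-6514-5p (0.87), hsa-miR-548ay-5p (0.85) and hsa-miR-6511b-5p (0.84). These correlations are descriptions. The libraries share kind, depth and scaling, and human-named reads made up 0.755% to 0.930% of reads in the undifferentiated MS2 library A and the differentiated MS2 libraries A and B, against 0.0900% to 0.115% in the other MS2 libraries. The part of those reads in the result was not tested.

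Whether a name was recovered with the MS2 control beyond its level in the input was asked across all names. The 44 names described here that passed the filter on low reads had a median limma difference of -0.38 in undifferentiated and -0.05 in differentiated cells, beside -2.19 and -1.58 over all 305 names tested. In undifferentiated cells 7 of 44 were higher in the MS2 eluates, against a background of 8.52% of all names tested, and 15 were lower, against 62.6%. In differentiated cells 11 of 44 were higher, against 15.4%, and 12 were lower, against 53.8%. The medians depend on the scaling, since size factors of the RLE kind put the median of all names at -0.79 and -1.05. Among names with an input mean of at least 50, the median ratio of MS2 to input signal was 0.182 for 24 names numbered 5000 and above and 0.0790 for 171 names below 1000 in undifferentiated cells, and 0.369 for 22 and 0.112 for 143 in differentiated cells. For names from 1000 up to 5000 it was 0.183 (20 names) and 0.202 (19 names), so in undifferentiated cells the late names stood where that neighbouring band did.

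The clearest recovery with the MS2 control was seen for rare names. miR-5106 had a signal of 9.14, 2.78 and 118 in the undifferentiated inputs and 5.51, 3.76 and 6.45 in the differentiated ones, against 952, 961 and 1345, and 697, 584 and 1029, in the MS2 eluates. Every MS2 library was above every input, and limma differences of MS2 over input were 5.10 ± 0.63 (adjusted p 2e-06) and 5.64 ± 0.63 (adjusted p 1.1e-06). Its MRTF-A signal was 690, 1122 and 429, and 140, 163 and 118, which lay below the MS2 level in differentiated cells (-2.35 ± 0.39, limma adjusted p 0.00012) and overlapped it in undifferentiated cells (-0.62 ± 0.39, limma adjusted p 0.18). The sequence of miR-5106 was the only one of 1679 mouse mature sequences to hold the A box consensus of tRNA genes (0.0596% of them), and none held its reverse complement. The motif was chosen after the sequences were seen and is a description of letters.

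miR-5119 had 5 and 2 reads in the undifferentiated and differentiated inputs and a signal of 263, 131 and 363, and 432, 515 and 271, in the MS2 eluates (36 and 38 reads). The limma differences over input were 4.31 ± 0.45 (adjusted p 3.9e-07) and 5.16 ± 0.45 (adjusted p 8.2e-08). miR-6396 had 94.4, 27.8 and 26.5, and 22.0, 39.5 and 43.0, in the inputs, and 788, 226 and 448, and 598, 755 and 542, in the MS2 eluates. It was higher by 3.07 ± 0.50 (limma adjusted p 3.4e-05) and 3.86 ± 0.50 (limma adjusted p 5e-06). These names were high in all 6 MS2 eluates, in contrast to miR-5099. miR-6355 showed the same order, with limma differences of 2.69 ± 0.45 and 3.19 ± 0.45 (adjusted p 4.4e-05 and 1.1e-05). miR-7036b-5p was higher in differentiated MS2 eluates by 3.28 ± 0.70 (limma adjusted p 0.00059) on 12 reads against 2. Its ratio of pooled reads was 96.2, with a 95% exact counting interval of 21.4 to 885. This name could pass the filter on low reads only through MS2 libraries, so its limma value and interval are a description.

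miR-6240 was abundant in inputs and MS2 eluates alike. Its MS2 signal was 5546, 3692 and 6062 in undifferentiated cells and 30683, 27019 and 50937 in differentiated cells, against inputs of 2457, 2584 and 3590, and 6525, 8335 and 7758. In the differentiated MS2 library C it took 12.1% of all reads, against 4.09% in A and 3.36% in B. All MS2 libraries exceeded the inputs of their state, with a limma difference of 2.21 ± 0.36 in differentiated cells (adjusted p 4.1e-05). In undifferentiated cells the limma difference of MS2 from input did not pass. The difference between the states in that contrast was 1.40 ± 0.50 with a limma adjusted p of 0.088, so it did not pass.

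**Figure D3:**
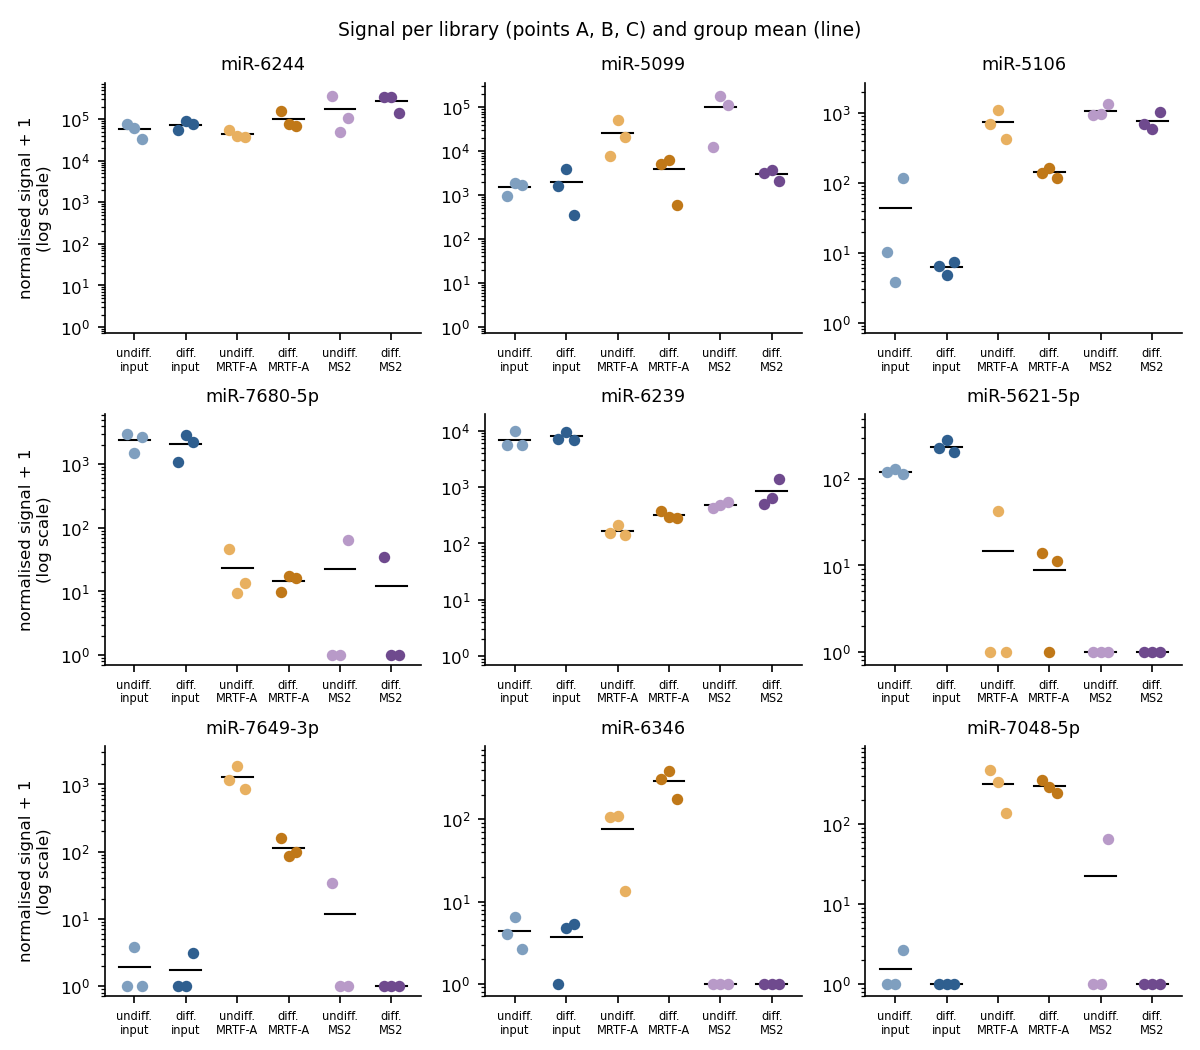
Signal + 1 (log scale) of 9 names in each of the 18 libraries; points are libraries A, B and C of each group and lines are group means. miR-5106 stands at 584 to 1345 in every MS2 library, miR-7680-5p is highest in the inputs (1081 to 3021), and miR-7649-3p is highest in the MRTF-A eluates (86.6 to 1869).

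Low ratios of MS2 to input signal were usual. Names below 1000 with an input mean of at least 50 had medians of 0.0790 (undifferentiated) and 0.112 (differentiated). Some names were seen in the inputs and hardly at all in either eluate. Both arms of miR-7680 were there in near equal numbers: miR-7680-3p had 3386, 1620 and 2808 in the undifferentiated and 1087, 3012 and 2293 in the differentiated inputs, and miR-7680-5p had 3021, 1481 and 2649, and 1081, 2888 and 2256. Within each of the 6 inputs the reads of the 3p arm were 1.01 to 1.12 times those of the 5p arm. Of the 6299 input reads of the 5p arm and 6651 of the 3p arm, the MRTF-A eluates had 15 and 8 reads to set beside them and the MS2 eluates 4 and 8. The limma difference of MS2 from input was -6.88 ± 0.75 for the 5p arm (adjusted p 5.8e-07) and -5.89 ± 0.77 for the 3p arm (adjusted p 3.6e-06) in undifferentiated cells, and -6.89 ± 0.75 and -5.93 ± 0.77 (adjusted p 9.9e-07 and 5.2e-06) in differentiated cells. Pooled reads per effective library size of the 5p arm were 130 times as high in input as in MS2 eluates (95% exact counting interval 44.5 to 632) in undifferentiated and 198 times (35.5 to 7824) in differentiated cells, and those of the 3p arm 67.8 times (23.2 to 329) in differentiated cells.

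miR-7214-5p had 353 and 445 reads in the input groups, with a signal of 399, 222 and 235, and 200, 319 and 357. It had 1 read in all MS2 eluates and 7 in all MRTF-A eluates. In undifferentiated cells it was lower in the MS2 eluates by limma (-4.46 ± 0.56, adjusted p 2.5e-06; input over MS2 pooled reads 44.1, interval 7.87 to 1749), and in differentiated cells, where the MS2 eluates had 0 reads, it was at least 3.09-fold lower, counted from a floor of 3 reads per library. miR-5621-5p had 122, 131 and 114, and 228, 282 and 209, in the inputs and 0 reads in the MS2 eluates, which made it at least 1.85-fold and 2.53-fold lower there. The floor is high because the MS2 libraries are shallow. Intervals and floors of this kind cover counting error only. miR-7680-5p, miR-7680-3p and miR-7214-5p could pass the filter on low reads only through the inputs. Their limma values of MS2 against input are therefore a description.

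Other abundant input names kept a trace in the eluates. The MS2-to-input ratio of miR-6239 was 0.0692 in undifferentiated and 0.106 in differentiated cells, near the medians of names below 1000. That of miR-6238 was 0.219 and 0.321, above those medians. miR-6239 had 5627, 9711 and 5581, and 7276, 9520 and 6988, in the inputs, 427, 487 and 534, and 498, 652 and 1381, in the MS2 eluates, and 153, 208 and 139, and 384, 297 and 288, in the MRTF-A eluates. The order input, MS2, MRTF-A held without overlap in both states, with limma differences of MS2 from input of -3.78 ± 0.36 and -3.34 ± 0.36 (adjusted p 1.2e-07 and 9.2e-07). miR-6238 had means of 4057 ± 2612 and 4906 ± 989 in the inputs, 889 ± 342 and 1576 ± 611 in the MS2 eluates and 480 ± 210 and 487 ± 110 in the MRTF-A eluates (SD, n = 3). Its MS2-to-input difference of -2.07 ± 0.47 passed by limma in undifferentiated cells (adjusted p 0.00089) but lost its call when libraries were scaled by total reads (adjusted p 0.069), by RLE factors (0.843) or fitted with DESeq2 (0.784). miR-6241 was 37867, 29646 and 15889, and 37985, 58819 and 48623, in the inputs and 25467, 8748 and 20086, and 31712, 54107 and 24615, in the MS2 eluates, which overlapped. Its MRTF-A signal of 8708, 4893 and 4487, and 8580, 6360 and 5704, was below every MS2 library of its state by -1.51 ± 0.45 and -2.36 ± 0.45 (limma adjusted p 0.011 and 0.00038).

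The remaining names with most reads had intermediate ratios. miR-6237 had means of 1176 ± 257 and 1293 ± 370 in the inputs, 748 ± 318 and 1250 ± 254 in the MRTF-A eluates and 614 ± 266 and 1103 ± 457 in the MS2 eluates. miR-5126, whose sequence is G and C alone, had 602 ± 228 and 940 ± 66.6, 173 ± 51.0 and 408 ± 123, and 91.2 ± 49.7 and 498 ± 288. miR-6937-5p had 502 ± 199 and 782 ± 93.0, 126 ± 61.4 and 104 ± 32.2, and 83.3 ± 72.4 and 228 ± 56.0. For miR-6237 the direction of MS2 against input in undifferentiated cells turned with the scaling, from -1.02 in the limma fit to 0.89 with RLE factors and 0.88 in DESeq2.

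**Figure D4:**
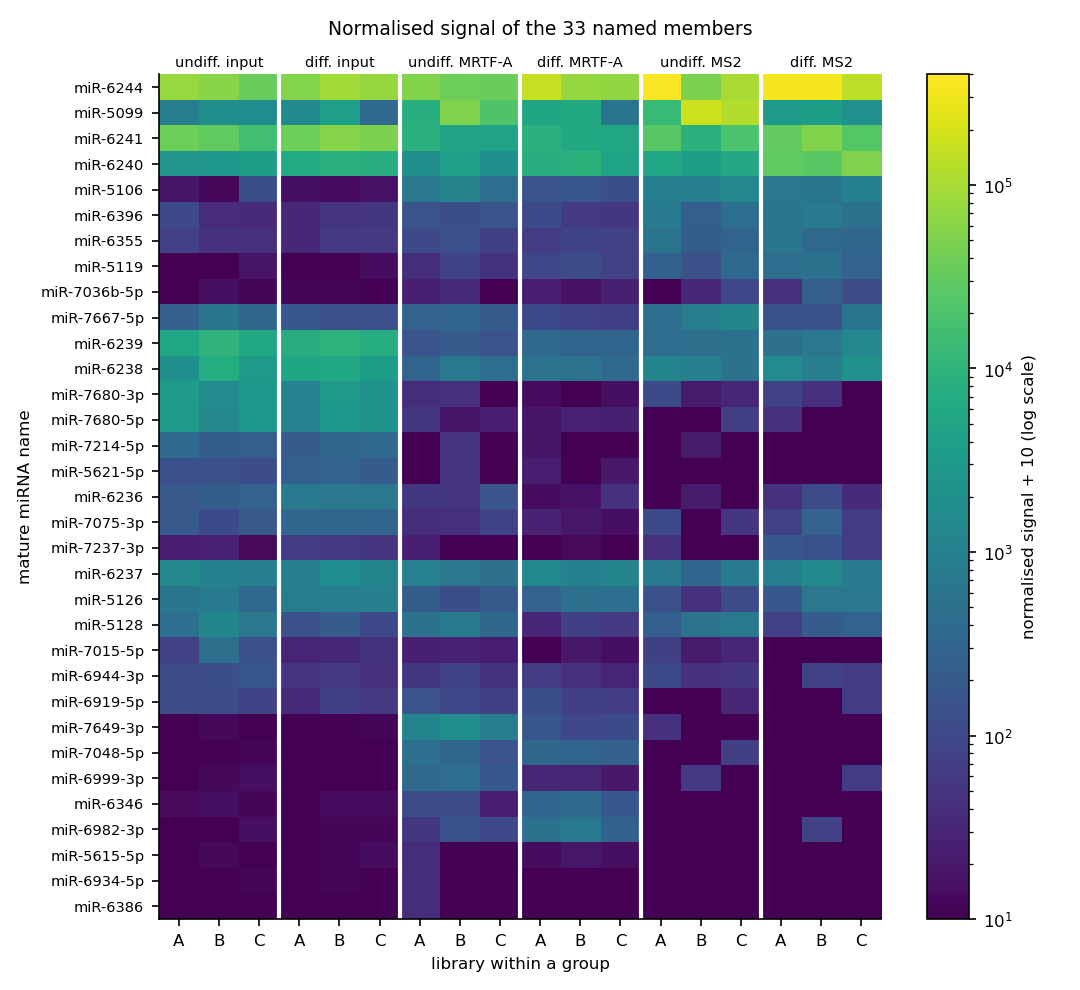
Heatmap of the signal + 10 (log colour scale) of 33 named miRNAs (rows) in the 18 libraries (columns). Names high in the inputs, such as miR-7680-3p and miR-7214-5p, are dark in the eluates, and names such as miR-7649-3p and miR-7048-5p are brightest in the MRTF-A columns.

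The comparison of the MRTF-A bait with the MS2 control asks which small RNAs stayed with the 3'UTR beyond the tag. The 23 names that passed the filter had median limma differences of -0.67 in undifferentiated and -1.23 in differentiated cells, beside 1.16 and 2.37 over all 169 names tested. In undifferentiated cells 5 of 23 were higher with the bait, against a background of 43.2%, and 7 were lower, against 17.2%. In differentiated cells 4 of 23 were higher, against 57.4%, and 11 were lower, against 21.9%. The median of all names was -0.25 and 1.18 when libraries were scaled by total reads, so differences here are relative to a scaling that differs between kinds of library. The names lower with the bait were those high in the MS2 eluates or inputs. Among them were miR-5119 (-2.15 ± 0.50, limma adjusted p 0.0024, and -2.02 ± 0.50, adjusted p 0.0027), miR-6396 (-1.61 ± 0.48, adjusted p 0.011, and -3.14 ± 0.48, adjusted p 7.1e-05) and miR-6355 (-1.79 ± 0.48, adjusted p 0.0059, and -2.57 ± 0.48, adjusted p 0.00033). Without the MS2 libraries, where they were high, miR-5119 and miR-6396 could not have passed the filter on low reads. Their limma values of bait against control are therefore a description. The call for miR-5119 in differentiated cells was lost with the MS2 library of under 0.5% human names as the only control (-1.50, limma adjusted p 0.085).

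The names higher with the bait had almost no reads elsewhere. miR-7649-3p, miR-7048-5p, miR-6982-3p, miR-6999-3p and miR-6346 could pass the filter on low reads only through MRTF-A libraries. Their limma values against the control are therefore a description. miR-7649-3p had a signal of 1181, 1869 and 844 in the undifferentiated MRTF-A eluates (369 reads) and 157, 86.6 and 97.7 in the differentiated ones (81 reads). All inputs together held 2 of its reads and all MS2 eluates 1. The limma difference of bait over MS2 control was 6.26 ± 0.59 in undifferentiated cells (adjusted p 1.1e-06). As that rests on 1 MS2 read, the ratio of pooled reads per effective library size was 225 with a 95% exact counting interval of 40.1 to 8912. In differentiated cells, with 0 MS2 reads, the bait was at least 1.20-fold higher. miR-7048-5p had 475, 332 and 139, and 353, 290 and 247, in the MRTF-A eluates (298 reads), 1 input read and 3 MS2 reads. Its limma difference was 3.90 ± 0.72 in undifferentiated cells (adjusted p 0.00043) and its ratio of pooled reads 16.7 (5.51 to 82.5), and it was at least 3.13-fold higher in differentiated cells.

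miR-6982-3p and miR-6346 were higher in the differentiated than in the undifferentiated bait eluates, and miR-7649-3p and miR-6999-3p lower, with no overlap of the libraries. The state difference in the contrast of bait with MS2 control was tested by limma, and it passed for none of the 4: the adjusted p was 0.102 for miR-6346, 0.445 for miR-6982-3p and 0.053 for both miR-7649-3p and miR-6999-3p. miR-6982-3p had 46.0, 133 and 88.2, and 514, 703 and 257 (405 reads), with 5 input and 2 MS2 reads. miR-6346 had 107, 108 and 12.6, and 310, 390 and 175 (243 reads), with 8 input reads and no MS2 read. Against the MS2 control of differentiated cells miR-6982-3p was higher by 4.54 ± 0.74 (limma adjusted p 0.00012), a ratio of pooled reads of 25.2 (6.92 to 209), and miR-6346 at least 3.08-fold. miR-6999-3p had 383, 440 and 176 in undifferentiated bait eluates, higher than the control by 4.16 ± 0.81 (limma adjusted p 0.00065), and 21.8, 20.0 and 10.3 in differentiated ones, where it overlapped the control (0.53 ± 0.81, limma adjusted p 0.56).

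With a cut chosen after the values were seen, 10 names had at least 20 reads in the MRTF-A eluates and at least 10 times as many there as in inputs and controls together. Beside those above they were miR-7068-5p (122 bait reads), miR-7060-5p (107), miR-5623-5p (85), miR-5621-3p (28) and miR-7212-5p (28). Of the 8 of them whose sequence is in the RefSeq table, 1 (miR-5623-5p) had a seed match in the Mrtfa 3'UTR. The UTR searched was the 1007 bases from 81012281 to 81013287 of chromosome 15, minus strand, in GENCODE vM21, and a match was an exact run of 7 letters complementary to bases 2 to 8. Such a run was there for 25 of 185 of the late names (13.5%) and for 36 of 311 names below 1000 with a mean of 10 (11.6%). A match is a description of letters, and the bait's own sequence was not used here.

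The inputs show what differed between the states of the cells. Of 41 names tested, 9 were higher in differentiated input, against a background of 16% of 313 names, and 7 were lower, against 46.3%. For 6 of the 41 the mean of 10 was reached in no group outside this comparison, so the rule used the same values; among them are 3 of the 9 called higher (miR-7068-3p, miR-7220-5p and miR-6481), and the counts over all 41 are a description. Of the other 35 names, 6 were higher and 7 lower. The median limma difference of the 41 was 0.10, beside -0.64 over all names; the latter was 0.14 with RLE factors, and with these 19 of the 41 were higher and 1 lower. miR-6236 rose from 186, 214 and 272 to 742, 699 and 699 (1.65 ± 0.31, limma adjusted p 0.00056). miR-6240 rose from 2457, 2584 and 3590 to 6525, 8335 and 7758 (1.40 ± 0.31, limma adjusted p 0.0018). miR-7237-3p rose from 12.2, 16.7 and 3.31 to 55.1, 48.9 and 40.9 (1.54 ± 0.32, limma adjusted p 0.0012) on 12 and 75 reads. None of these libraries overlapped between the states. miR-7237-3p could pass the filter on low reads only through the differentiated inputs, so its limma value is a description.

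miR-7075-3p and miR-5621-5p were higher in differentiated input by 1.04 ± 0.34 and 0.91 ± 0.32 (limma adjusted p 0.018 and 0.025). Both calls were lost when no filter was applied (limma adjusted p 0.058 and 0.122), with a block for the column letter (0.052 and 0.097) and without differentiated input A (0.071 and 0.066) or B (0.059 and 0.092). The names with most input reads gave no call: miR-6244 differed by 0.41 ± 0.39 (limma adjusted p 0.38), miR-7680-3p by -0.34 ± 0.41 (0.49), miR-7680-5p by -0.25 ± 0.41 (0.61) and miR-5099 by -0.14 ± 0.64 (0.85). In bulk RNA a smaller number of cells holding an RNA and less of it per cell cannot be told apart.

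Among the names that fell with differentiation miR-5128 went from 469, 1273 and 656 to 129, 201 and 92.5 (-2.36 ± 0.41, limma adjusted p 0.00035). It was lower in the other libraries of differentiated cells too, at 21.8, 63.3 and 51.4 after 537, 739 and 328 in the MRTF-A eluates, and 66.4, 206 and 271 after 230, 558 and 726 in the MS2 eluates, where C lies within the undifferentiated range. miR-7667-5p went from 247, 589 and 343 to 171, 122 and 123 (-1.37 ± 0.37, limma adjusted p 0.0068). miR-7015-5p went from 67.0, 489 and 126 to 20.2, 24.4 and 36.6 (-2.25 ± 0.55, limma adjusted p 0.0034) and miR-6944-3p from 100, 119 and 157 to 42.2, 50.7 and 32.3 (-1.39 ± 0.34, limma adjusted p 0.0034). With RLE factors the limma adjusted p of the last 3 was 0.258, 0.051 and 0.124, so these 3 calls depend on the scaling, whereas that of miR-5128 passed under every setting tried for this comparison. miR-6919-5p went from 107, 111 and 79.5 to 25.7, 60.1 and 51.6 (-1.01 ± 0.36, limma adjusted p 0.026), a call lost with library totals (0.199), TMM (0.314) or RLE factors (0.682) and without undifferentiated input A (0.079) or differentiated input A (0.145). miR-5128 and miR-7667-5p share a run of 9 bases, one with the reverse complement of the other. This pair was 1 of 378 searched. miR-7649-3p and miR-7680-5p shared a longer run of 10 in that way. On the same strand miR-5119 shared 9 bases with miR-5128 and with miR-5621-5p. With at most 2 mismatches miR-7667-5p matched transcripts of 92 annotated genes and miR-5128 of 12. Most of the other 26 named sequences searched matched none or 1, though miR-5126 matched 8. Reads of such a name can come from several places, and how multiply matching reads were counted is not given in the sources used here.

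A hairpin that gives a miRNA often leaves reads of both arms. Of the 214 names, 160 carry an arm in the name and stem from 135 hairpins. The other arm had at least 1 read for 136 of the 160 and none for 24, and for 25 hairpins both arms are among the names described here. Only 8 of those 25 had 20 reads or more on each arm: miR-7680, miR-7667, miR-7058, miR-7068, miR-7222, miR-5621, miR-6906 and miR-7070. miR-7222-3p (194 reads) and miR-7222-5p (38 reads) were found in the inputs, with a single read of the 3p arm in the eluates.

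The arms of miR-7068 and miR-5621 parted between input and bait. miR-7068-3p had 199 reads in the inputs, 5 in the MRTF-A and 2 in the MS2 eluates, while miR-7068-5p had 1, 122 and 2. The signal of the 3p arm was 36.5, 33.3 and 64.6, and 66.1, 90.2 and 112, in the inputs, and that of the 5p arm 123, 41.5 and 0, and 140, 137 and 185, in the MRTF-A eluates. miR-5621-5p had 527 input reads and 10 in the MRTF-A eluates, while miR-5621-3p had no input read and 28 in the MRTF-A eluates. Both pairs were picked after their values were seen, and they are given as values without a test.

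The 185 late names with a sequence were compared with 311 names below 1000 that also reached a mean of 10. Their median length was 22 bases in both sets, with ranges of 19 to 27 and 19 to 26. Median G and C content was 57.1% against 47.8%, and 35 late names (18.9%) held a run of at least 4 G, against 21 (6.75%). The first base was U, the base preferred by Argonaute proteins, in 88 late names (47.6%) and in 118 of the others (37.9%). These features belong to the sequences and are given as counts. By place, 111 of the 185 lay in an intron of a protein-coding gene, 35 in an exon of one, 17 opposite a gene, 9 within another gene on the same strand and 13 with no other annotated gene. In all, 7 seeds were shared by 2 names each, among them AGCGUUG by miR-6239 and miR-6351.

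**Figure D5:**
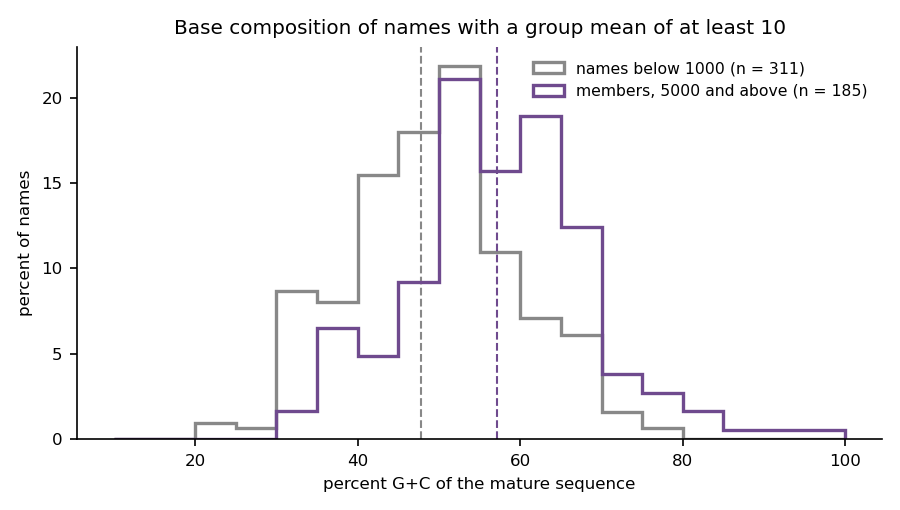
Histogram of G and C content (percent, x axis) of the mature sequences of 185 late names and 311 names below 1000 that reached a mean of 10, as percent of names in each set; dashed lines are medians. The late names are shifted to higher content, with medians of 57.1% and 47.8%.

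A search of 3908 annotated small RNA transcripts gave few matches. An exact match of the whole mature sequence was found for 3 late names: miR-5121 within Snord33, miR-6481 within a mitochondrial tRNA and miR-6516-5p within a scaRNA. With up to 3 mismatches there were 5 (2.70%), against 7 (2.25%) of the names below 1000. The set held 354 entries of the rRNA class, the longest of 1849 bases; the large ribosomal RNAs and nuclear tRNAs were not used here, and a miss in this set says only that the letters are not in it.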

How the data were processed

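Small RNA of 18 C2C12 libraries was analysed from a deposited table of normalised signal, reads scaled to a common effective library size (CPM-like), made by the authors. Per the submitters' processing notes, the tools were Bowtie2 2.0.13, cutadapt 1.4.2, edgeR 3.18.1 and featureCounts 1.4.6, on GRCm38/mm10; their settings are not stated in what was used here. Within each library the deposited signal was a whole multiple of the signal of 1 read, and 100% of values came out whole within 0.01 read. Groups come from the sample titles. The members and lists were chosen with earlier results of these data known. The names given values were miR-5099, miR-6244, the 12 highest, the 5 highest of each group, up to 5 per direction and comparison and the names at the threshold; other names were chosen after their values were seen.

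limma 3.58.1 with a trend (R 4.3.3) was fitted to log2(signal + 10) of names passing filterByExpr, with Benjamini-Hochberg adjustment over all names tested and a threshold of 0.05: 6 inputs for differentiation, 12 eluates for the bait, 18 libraries for MS2 against input. A fold on this scale understates changes of low names. It called 195, 102, 134, 217 and 211 names for differentiation in input, the bait in undifferentiated and differentiated cells, and MS2 against input in undifferentiated and differentiated cells. edgeR 4.0.16 quasi-likelihood on the recovered reads called 201, 109, 133, 228 and 188. DESeq2 1.42.0, other scalings, pseudocounts, no filter, a replicate block, single kinds of MS2 library and leaving out each library were alternatives. Simulated data were used to test the fit. No 2 libraries of a group agreed within the noise of read sampling. Python 3.11.15 was used with matplotlib 3.10.9, pandas 2.3.3, numpy 2.4.6 and scipy 1.17.1.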

Additional observations from a re-analysis of the deposited data

Results flagged for a closer look

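For 2 names the difference of MS2 eluate from input differed between the states of the cells by a test of that difference itself in limma. miR-6909-5p had a signal of 9.14, 22.2 and 24.9 in undifferentiated and 12.9, 22.5 and 25.8 in differentiated inputs, with 0, 23.7 and 21.3 (3 reads) in undifferentiated and 232, 172 and 190 (19 reads) in differentiated MS2 eluates, a difference between states of 3.13 ± 0.84 (SE, log2) with a limma adjusted p of 0.026. miR-7667-3p had 27.4, 69.5 and 53.0, and 5.51, 11.3 and 32.3, in the inputs, 65.6, 356 and 384 (50 reads) in undifferentiated and 0 reads in differentiated MS2 eluates. For it the limma value was -3.22 ± 0.86 with an adjusted p of 0.026, which depends on the pseudocount because a group is at 0. Of 305 names tested in all, 31 passed.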

How the results depend on the processing

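Of 69 named calls, 46 passed in the same direction under every setting tried. The other 23 lost the threshold under at least 1, and 2 of these turned direction under at least 1. Names were in part chosen by their calls in these same fits. Some, such as miR-7649-3p and miR-7680-5p, passed the filter only through the groups where they were high. These counts are therefore a description. miR-6237 in MS2 against input, undifferentiated, turned from -1.02 to 0.88 with DESeq2 and 0.89 with RLE factors, and miR-6919-5p in differentiated cells from -1.53 to 0.26 with only the MS2 library of under 0.5% human names. The cause was not tested. Counts of called names moved by over 1.5 times in 27 of 106 alternatives. In input, 9 higher and 7 lower became 16 and 2 (DESeq2), 19 and 1 (RLE factors) and 17 and 3 (TMM factors), with 3 lower by library totals. For the bait in undifferentiated cells, 5 higher became 12 without a filter and 8 with either kind of MS2 library alone, and 7 lower became 12 (DESeq2), 13 (library totals) and 11 (RLE factors); in differentiated cells 4 higher became 9 without a filter and 7 with MS2 libraries of at least 0.5% human names. For MS2 against input in undifferentiated cells, 7 higher became 15 (edgeR), 20 (DESeq2), 12 (library totals or no filter), 14 (RLE factors), and 13 and 11 with MS2 libraries under and over 0.5% human names, and 15 lower became 7 (DESeq2 and RLE factors). In differentiated cells 11 higher became 17 and 12 lower became 6 (DESeq2), or 19 lower with MS2 libraries over 0.5%.

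Leaving out 1 library gave 5 to 11 higher and 4 to 9 lower in input, 5 to 7 higher and 6 to 9 lower, and 4 to 7 higher and 9 to 13 lower, for the bait in undifferentiated and differentiated cells, and 7 to 11 higher and 12 to 19 lower, and 10 to 14 higher and 9 to 17 lower, for MS2 against input; a lone sample is then assumed to vary like the other groups. With the replicate block of the column letter, input counts were 6 and 6 in place of 9 and 7, and the others moved by at most 1. The labels do not pair samples by letter. Same-letter deviations correlated at 0.127, 0.161 and 0.373 for the bait in differentiated cells, where the block gave 4 higher and 12 lower in place of 4 and 11, and at -0.195 to 0.293 elsewhere, with at least 1 letter under 0.1 in each comparison.

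Ratios of shares without miR-5099 and miR-6244 were 1.09 and 1.32 for MS2 over input (main 4.95 and 2.70), 0.161 and 0.112 for MRTF-A over input (0.379 and 0.351), 0.148 for MRTF-A over MS2 in undifferentiated cells (0.0765) and 2.44 for differentiated over undifferentiated MS2. From the summed signal MRTF-A over input was 0.773 and 0.806, MRTF-A over MS2 0.280 and 0.344 (main 0.0765 and 0.130) and differentiated over undifferentiated MS2 1.17. A minimum mean of 20 left 115 names and of 50 left 60. Depth of the MS2 eluates limits all calls of absence there.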
